A study of Mus musculus with 6 samples.

Results

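Genes of sterol and fatty acid metabolism were examined in Foxp3-expressing regulatory T (Treg) cells from pancreas and spleen of the NOD mouse, a strain that develops autoimmune diabetes. The members were 35 genes listed by name from textbook pathways, with earlier results of these data known. All 35 had a probe set of their own among the 19752 genes measured. Each group was 3 Affymetrix Mouse Gene 1.0 ST arrays of Treg cells from females aged 10 weeks on the background labelled NOD NRB_SFB+, with a Foxp3-ires-gfp reporter, prediabetic and given no treatment that the labels name. Both groups were the same sort, DAPI- CD45+ TCRb+ CD4+ GFP+ cells, and tissue is the only difference between them that the labels name. The reporter marks cells by transcription of Foxp3. Whether an array held 1 mouse or a pool is not stated, so the p-values reflect the spread among these arrays alone, and that spread may be technical.

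The 35 members fall into 6 roles. Sterol synthesis has 12 (Hmgcs1, Mvk, Pmvk, Mvd, Idi1, Fdps, Fdft1, Sqle, Lss, Cyp51, Nsdhl and Dhcr7), sterol regulation 3 (Insig1, Srebf1 and Srebf2) and sterol efflux 2 (Abca1 and Abcg1). Fatty acid synthesis has 10 (Acly, Acaca, Fasn, Scd1, Scd2, Elovl1, Elovl5, Elovl6, Fads1 and Fads2). Uptake, binding and storage has 5 (Cd36, Lpl, Fabp5, Dgat1 and Dgat2), and fatty acid oxidation 3 (Cpt1a, Acadl and Acadm).

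Cells build cholesterol from acetyl-CoA through mevalonate and squalene, and the same acetyl-CoA feeds fatty acid synthesis, in which fatty acid synthase makes palmitate and elongases and desaturases lengthen and unsaturate it. Both branches are driven by the sterol regulatory element-binding proteins, SREBP-2 mainly for sterol genes and SREBP-1 mainly for fatty acid genes, which Insig proteins hold in the endoplasmic reticulum while sterol is plentiful. Treg cells are known to use lipid synthesis when they proliferate and to rely on fatty acid oxidation and uptake in tissues. The comparison asks whether Treg cells in the organ under autoimmune attack differ in these programmes from those of a lymphoid organ.

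Promoter sequences are shown because SREBPs and their partner factors act on sterol and fatty acid genes through short motifs near the gene start. RefSeq promoters (GRCm38.p6, the C57BL/6J reference, not NOD) matched 24 of the 35 members, and the 250 bases before the gene start were searched on both strands. The CCAAT box, CCAAT, the site of NF-Y, a factor that works beside SREBPs, was in 12 of the 12 sterol synthesis and regulation genes matched. It was in 5 of 11 genes of fatty acid synthesis, uptake and oxidation, and in 37.5% of the 27025 genes with a promoter. The sterol regulatory element in the form TCACNCCAC was in 1 member, Hmgcs1, and in 1.22% of genes. The E-box CACGTG was in 4 members and in 6.86% of genes, and the LXR element, a direct repeat of AGGTCA with 4 bases between, was in 0 of 24 members and 0.0148% of genes. For genes with several starts, a match at any start counted. A match is a description of these letters and not a bound site. Hmgcs1 (chr13:119690101-119690350, plus strand) holds both SREBP and NF-Y motifs, Idi1 (chr13:8885356-8885605, plus strand) was the sterol gene whose arrays separated by tissue, Fasn (chr11:120824548-120824797, minus strand) is a fatty acid gene with the CCAAT box, and Elovl6 (chr3:129532136-129532385, plus strand) is one with neither. They are written from 5′ to 3′ on the gene's strand and end at the base before the gene start, with capitals for matches to TCACNCCAC or CCAAT on either strand (ATTGG is the CCAAT box on the other strand).
Hmgcs1: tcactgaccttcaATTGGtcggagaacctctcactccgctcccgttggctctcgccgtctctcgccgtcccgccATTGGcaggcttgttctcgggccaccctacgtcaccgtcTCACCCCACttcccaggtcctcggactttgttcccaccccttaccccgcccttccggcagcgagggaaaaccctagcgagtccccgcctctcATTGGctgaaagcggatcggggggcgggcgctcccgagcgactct
Idi1: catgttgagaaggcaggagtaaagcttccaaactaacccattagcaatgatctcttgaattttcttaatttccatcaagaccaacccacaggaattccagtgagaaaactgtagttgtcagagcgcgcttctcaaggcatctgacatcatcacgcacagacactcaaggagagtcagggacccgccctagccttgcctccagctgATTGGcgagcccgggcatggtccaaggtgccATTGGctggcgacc
Fasn: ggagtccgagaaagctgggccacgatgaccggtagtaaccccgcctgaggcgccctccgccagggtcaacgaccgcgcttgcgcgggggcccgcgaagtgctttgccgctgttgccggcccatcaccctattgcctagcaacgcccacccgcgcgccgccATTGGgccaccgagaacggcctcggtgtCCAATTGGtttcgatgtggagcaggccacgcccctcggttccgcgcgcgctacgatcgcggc
Elovl6: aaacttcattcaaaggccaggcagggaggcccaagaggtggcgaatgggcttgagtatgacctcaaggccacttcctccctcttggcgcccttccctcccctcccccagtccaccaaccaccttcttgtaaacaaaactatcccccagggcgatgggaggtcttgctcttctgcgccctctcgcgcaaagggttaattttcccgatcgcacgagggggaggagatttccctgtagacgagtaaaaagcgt
In Hmgcs1 the sterol regulatory element begins 137 bases before the gene start, with CCAAT boxes on both sides of it.

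The values are log2 intensities, compared with limma across all 19752 genes, and a gene passed at a Benjamini-Hochberg adjusted p under 0.05. Fold changes are pancreas against spleen. The background level, set from 1190 olfactory and vomeronasal receptor genes, was 5.99 on the log2 scale, and 32 of the 35 members had a mean above it. Each array had 11165 to 12468 genes above background, and precision is limited by the number of arrays. The interquartile range of the log2 values over genes differed between arrays of a tissue, from 2.10 on pancreas array 3 to 2.96 on pancreas array 1 and from 2.38 on spleen array 1 to 2.90 on spleen array 3. Of 10 measured T cell and Treg markers, Foxp3 among them, 0 were past the test in limma, and 0 also at an unadjusted p under 0.05. Each of the 10 was above background on every array.

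Of the 35 members, 2 rose in pancreas and 0 fell, Scd1 and Fabp5, both of the fatty acid arm. Over all genes, 0.547% were called higher and 0.132% lower. Scd1 and Fabp5 had been named beforehand as examples of fatty acid genes, so the count of 2 is no test of the list. At an unadjusted limma p under 0.05 there were 4 members higher, Scd1, Fabp5, Elovl6 and Acadl, and 0 lower, where the shares over all genes were 3.20% and 3.64%. Pancreas and spleen arrays were fully apart for 3 members higher in pancreas, Scd1, Fabp5 and Elovl6, and for 1 lower, Idi1, where the shares over all genes were 4.57% and 5.81%. The median log2 fold change of the members was -0.03, and that of all genes was 0.00. The members as a whole centred where all genes did, and 31 of the 35 had a 95% interval that includes 0.

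**Figure D1:**
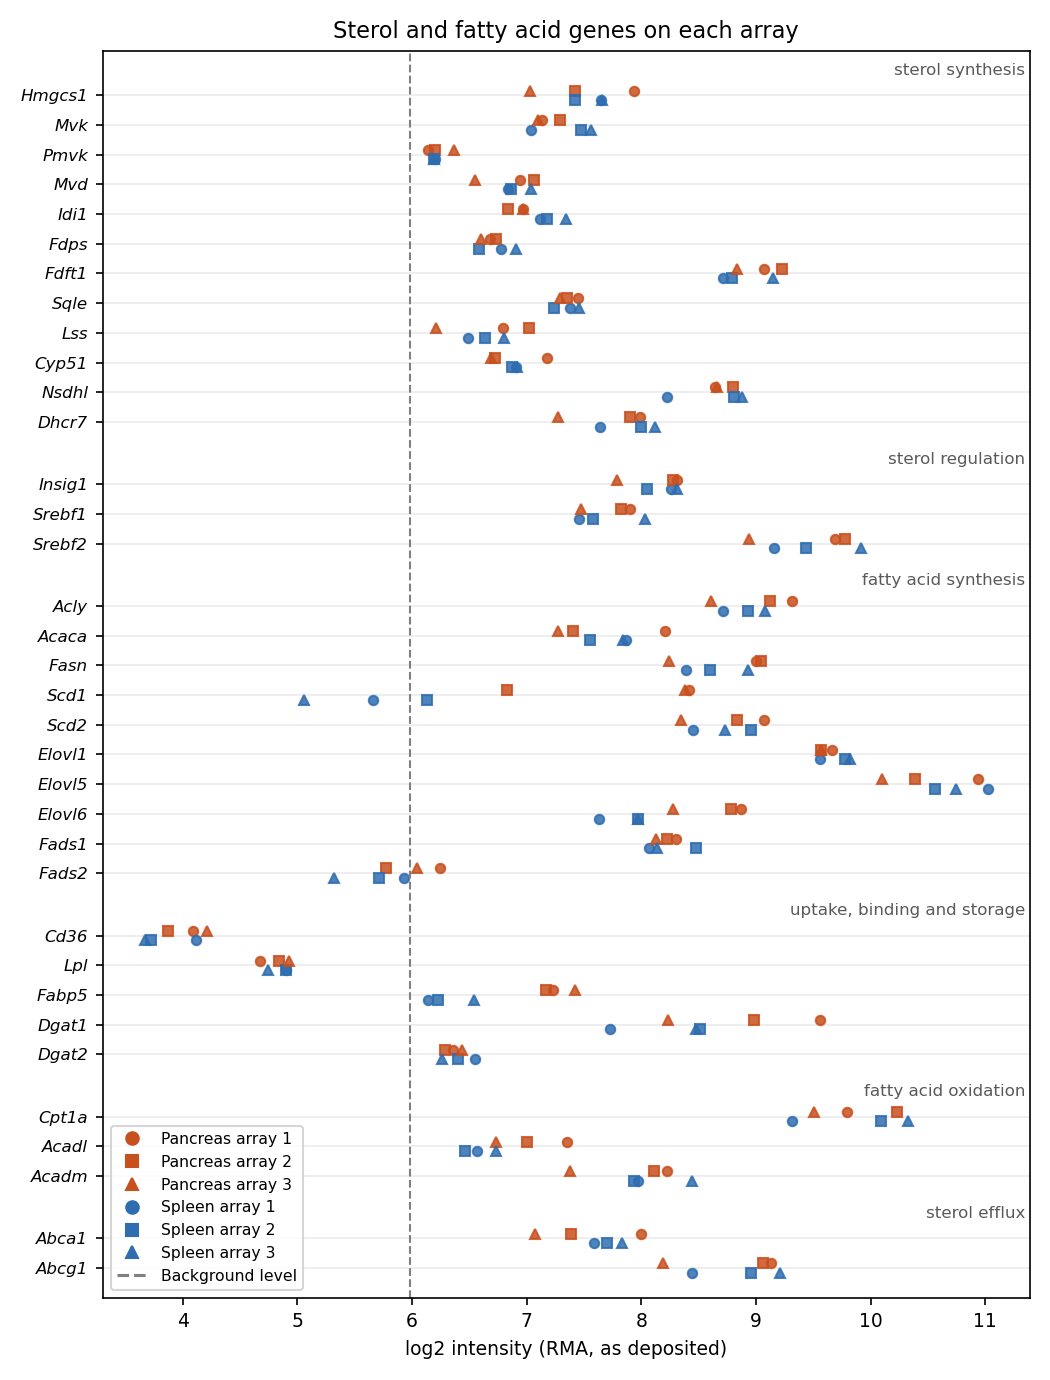
Log2 intensity (x axis) of each of the 35 members (rows, by role) on the 3 pancreas arrays and 3 spleen arrays, each array its own symbol, with the background level as a dashed line. Scd1, Fabp5 and Elovl6 have all pancreas arrays to the right of all spleen arrays, Idi1 the reverse, and Cd36 and Lpl lie below background on all 6 arrays.

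Sterol synthesis genes did not pass the test in either direction, and their differences were small. Of the 12, 5 had a higher mean in pancreas and 7 a lower one, with log2 fold changes from -0.29 to 0.16 and a median of -0.05, and all 12 were above background. The sign of that median was not stable, at 0.044 without pancreas array 3, 0.019 with array weights and -0.107 without pancreas array 2. No member had an unadjusted limma p under 0.05. The 95% intervals of all 12 stayed between -0.69 and 0.57, so a 2-fold difference in either direction lay outside each of them. This bounds each gene and does not show that the tissues were equal.

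Idi1, the isomerase that makes the reactive isoprenoid unit dimethylallyl diphosphate, had the smallest p of the 12. Its log2 intensity was 6.97, 6.84 and 6.97 on pancreas arrays 1 to 3 and 7.12, 7.18 and 7.34 on spleen arrays 1 to 3. All pancreas arrays were below all spleen arrays, by a log2 fold change of -0.29 ± 0.16 SE (adjusted p = 0.911, limma). A second probe set of Idi1 differed by -0.40, in the same direction.

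Mvk, mevalonate kinase, was at 7.13, 7.29 and 7.10 in pancreas and 7.04, 7.47 and 7.56 in spleen. Dhcr7, which catalyses the last step to cholesterol in one branch of the pathway, was at 7.99, 7.90 and 7.27 in pancreas and 7.64, 8.0 and 8.12 in spleen. Both overlapped between tissues, with log2 fold changes of -0.18 and -0.20, and Dhcr7, lowest on pancreas array 3, was at 0.03 without that array. The other 9, among them Hmgcs1, which makes HMG-CoA, Fdft1, squalene synthase, Sqle, squalene epoxidase, and Cyp51, lanosterol demethylase, had log2 fold changes from -0.11 (Hmgcs1) to 0.16 (Fdft1), and all 9 overlapped. Sqle varied least, by 0.22 on the log2 scale over the 6 arrays.

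The 3 regulators did not pass the test either. Insig1, the sterol-sensing retention protein and itself an SREBP target, was at 8.31, 8.28 and 7.79 in pancreas and 8.26, 8.05 and 8.31 in spleen. Srebf1 was at 7.90, 7.82 and 7.47 in pancreas and 7.46, 7.58 and 8.03 in spleen. Srebf2 was at 9.69, 9.78 and 8.94 in pancreas and 9.16, 9.44 and 9.92 in spleen. The tissues overlapped for all 3, with log2 fold changes of -0.08, 0.04 and -0.04, and each was at its pancreas low on array 3. None of these signs was stable. Srebf2 was positive under scale normalization (0.08) and quantile normalization (0.03), Insig1 was at 0.09 without pancreas array 3, and Srebf1 was at -0.08 without spleen array 1. These are transcript levels, and SREBPs are activated by cleavage of their proteins, which the arrays do not measure.

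The order of the arrays was shared by most sterol genes. Pancreas array 3 was the lowest pancreas array for 12 of the 15 sterol synthesis and regulation genes, as it was for 62.2% of all genes above background. Spleen array 3 was the highest spleen array for 14 of the 15, as it was for 42.1% of all genes above background. Pancreas array 3 was also the narrowest of the 6 arrays and spleen array 3 the widest of its tissue. Scaled to a common width, the mean deviation of the 12 sterol synthesis genes on pancreas array 3 went from -0.20 to -0.09, and on spleen array 3 from 0.17 to 0.11. Over the 11742 genes above background the same mean went from -0.16 to 0.07 on pancreas array 3, and from 0.06 to -0.04 on spleen array 3.

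Fatty acid synthesis genes had a median log2 fold change of 0.07 over 10 members. Of these, 1 rose, Scd1, and 0 fell, with 6 means higher and 4 lower in pancreas and 9 of the 10 above background. Scd1 encodes stearoyl-CoA desaturase, which puts the first double bond into palmitate and stearate. Its log2 intensity was 8.42, 6.83 and 8.38 on pancreas arrays 1 to 3 and 5.66, 6.13 and 5.06 on spleen arrays 1 to 3. All pancreas arrays stood above all spleen arrays, but pancreas array 2 was only 0.71 above the highest spleen array, and 1 of 3 spleen arrays was above background. The means were 7.88 ± 0.91 and 5.62 ± 0.54 (SD, n = 3 each), a log2 fold change of 2.26 ± 0.40 SE, or 4.79-fold (95% interval 2.59 to 8.88, adjusted p = 0.0355, limma). With spleen values under background raised to that level the difference was 3.59-fold.

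The call of Scd1 rested on several arrays. It ended without pancreas array 1 (adjusted p = 0.108, limma), without spleen array 1 (adjusted p = 0.0616) and without spleen array 3 (adjusted p = 0.0874), while the log2 fold change ran from 1.98 to 2.78 over the 6 fits that leave out an array. It was likewise lost after median centring of the arrays (adjusted p = 0.108), under scale normalization (adjusted p = 0.124) and with a floor at background (adjusted p = 0.634). Weighting the arrays by quality kept the call (adjusted p = 0.0219) with a smaller log2 fold change of 1.24. The largest weights fell on pancreas array 2 and spleen array 2, the arrays on which Scd1 was closest between tissues.

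Scd2, the desaturase gene of the same family, did not pass the test. It was at 9.07, 8.83 and 8.35 in pancreas and 8.45, 8.96 and 8.73 in spleen, and the tissues overlapped (log2 fold change 0.04, 95% interval -0.44 to 0.53, against 1.37 to 3.15 for Scd1). The remaining family genes Scd3 and Scd4 had a mean below background.

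Over the pancreas arrays the level of Scd1 was lowest where that of B cell markers was lowest. Of 7 measured B cell markers, 1 passed the test, Cd79a, and all 7 had a higher mean in pancreas, by a median log2 fold change of 0.74. All 7 were higher at an unadjusted limma p under 0.05, and 6 had arrays fully apart. The shares of all genes higher in these ways were 3.20% and 4.57%. Ms4a1, the gene of CD20, was at 8.0, 6.32 and 8.26 in pancreas and 5.59, 5.77 and 4.98 in spleen. Cd79a, part of the B cell receptor, was at 7.73, 6.80 and 8.36 in pancreas and 5.62, 6.27 and 5.43 in spleen. Like Scd1, both were lowest in pancreas on array 2. In spleen all 3 genes were lowest on array 3, but there Ms4a1 was below background on every array and Cd79a and Scd1 on 2 of 3, so that order is largely between values at background.

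Over the whole B cell list, 7 of 7 were lowest in pancreas on array 2, as were 1394 of the 11742 genes above background and 1207 of the other 8010. In spleen 6 of 7 were lowest on array 3, as were 67.3% of the genes whose mean is not above background and 30.2% of those above it, so this order is common among dim genes. Summed over the list, the linear intensity was 771 to 1720 in pancreas and 519 to 640 in spleen, and 4 of the 7 had a mean above background. The sort on TCRb, CD4 and GFP is a gate that B cells do not meet, and neither do acinar cells of the exocrine pancreas, whose markers are given below. The gate alone does not show how much RNA of either was left. In bulk samples fewer cells of a type and less RNA per cell cannot be told apart, and the part of B cell RNA in the difference of Scd1 was not tested.

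Ranked by likeness, the gene nearest to Scd1 was Ms4a1. Likeness was the root mean square difference between log2 values centred on each gene's own mean over the 6 arrays, taken against 11741 genes above background, a comparison chosen after the values were seen. It was 0.17 for Ms4a1, 0.32 for Cd79a, 0.35 for the MHC class II gene H2-Aa, 0.37 for the B cell scaffold gene Bank1, 0.41 for Ly86 and 0.43 for Cd74, the MHC class II invariant chain. Next came Rgs2 (0.48), a regulator of G protein signalling, at 7.75 to 10.22 over the 6 arrays. Further down its nearest 12 were the MHC class II genes H2-Eb1 (0.49) and H2-Ab1 (0.52). The rest were the dendritic cell lectin gene Cd209a (0.55) and the mitotic genes Bub1 (0.54) and Nusap1 (0.55). The measure includes the difference between tissues, which is large in each of them, and spleen values at background.

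Pancreas array 2 was also the lowest pancreas array for 6 of 11 cycling cell markers, 4 of 11 macrophage and dendritic cell markers and 0 of 10 acinar markers. Of all 19752 genes, 2601 were lowest in pancreas on that array. Acinar markers, secreted enzymes of the exocrine pancreas, passed the test in 9 of 10, with summed intensities of 12700 to 26100 in pancreas and 963 to 2500 in spleen. All 10 were at their pancreas high on array 2, as were 3622 of the 11742 genes above background, and Scd1 was at its pancreas low there. Adipocytes are rich in Scd1, and of their 10 measured markers 0 passed the test in limma, 0 had an unadjusted p under 0.05, and the median log2 fold change was 0.01. Adipoq, the adiponectin gene, was below background on every array, and the summed adipocyte intensity was 433 to 660 in pancreas and 508 to 621 in spleen. Of 11 macrophage and dendritic cell markers, 1 rose, Lyz2, with list sums of 859 to 904 in pancreas and 605 to 675 in spleen. At an unadjusted limma p under 0.05 there were 2 higher, Lyz2 and Cd68 (log2 fold change 0.54), and 0 lower. Arrays were fully apart for 3 of the 11, all higher in pancreas. The shares of all genes higher in these ways were 3.20% and 4.57%. Of the 11, 4 had a mean above background, and Adgre1 and Csf1r were below it on every array. The part of acinar cells, adipocytes, macrophages and dendritic cells in the difference of Scd1 was not tested. Of 9 endothelial and 7 islet markers, 0 passed the test in limma, and at an unadjusted p under 0.05 there was 1, Pecam1, lower in pancreas.

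**Figure D2:**
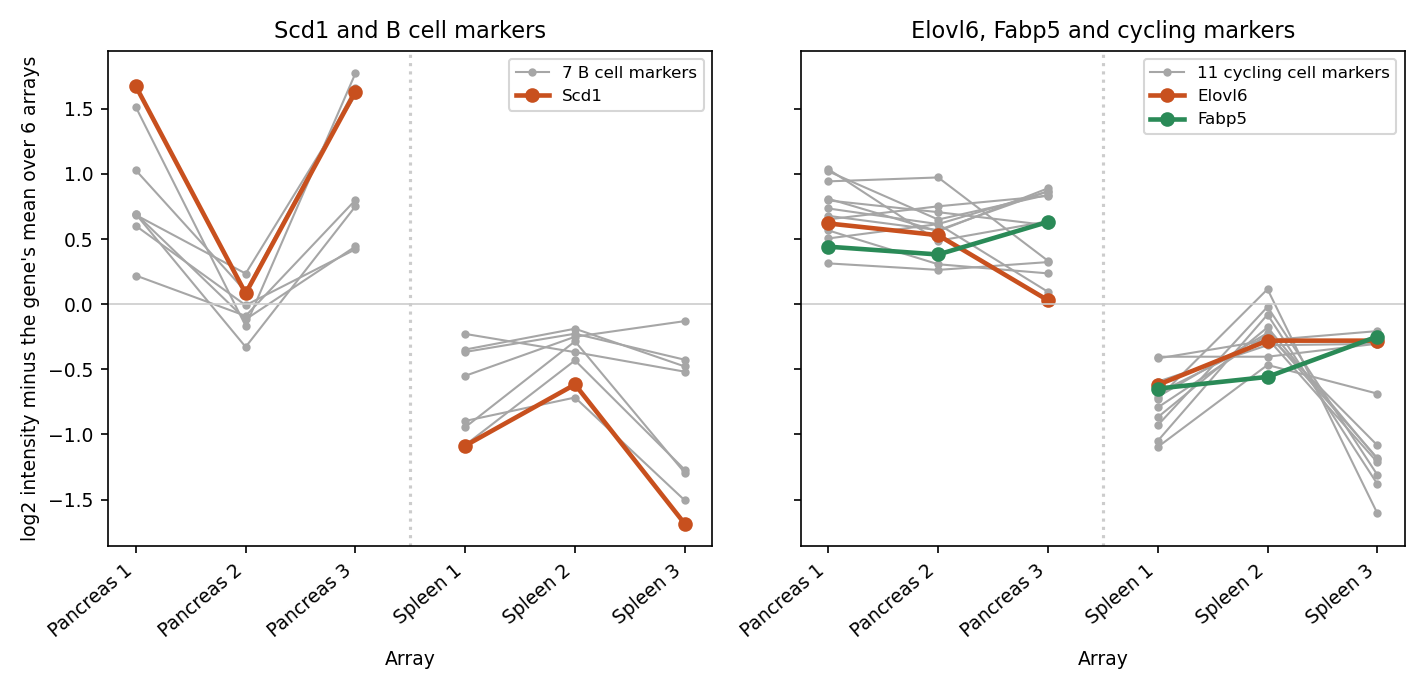
Log2 intensity minus each gene's mean over the 6 arrays (y axis) on pancreas arrays 1 to 3 and spleen arrays 1 to 3 (x axis), for Scd1 with 7 B cell markers in grey on the left, and for Elovl6 and Fabp5 with 11 cycling cell markers in grey on the right. Scd1 and all 7 B cell markers are at their pancreas low on array 2, and so is Fabp5, which spans 0.25 on the log2 scale across the pancreas arrays.

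Elovl6, which extends palmitate to stearate, the substrate of Scd1, was the next member by p. It was at 8.87, 8.78 and 8.28 in pancreas and 7.63, 7.97 and 7.97 in spleen. The tissues did not overlap, with a gap of 0.30, and the log2 fold change was 0.79 ± 0.20 SE, or 1.73-fold (95% interval 1.27 to 2.34). It did not pass the test over all genes (adjusted p = 0.157, limma), but did so under quantile normalization (adjusted p = 0.0145), scale normalization (adjusted p = 0.0443), array weights (adjusted p = 0.0017) and without pancreas array 3 (adjusted p = 0.0147), and over all 15 alternatives the adjusted p reached 0.67.

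By the same measure the genes nearest to Elovl6 were Mcm5 (0.07), a subunit of the replicative helicase, Ran (0.07), of nuclear transport, Dna2 (0.08), a DNA replication nuclease, Mxd1 (0.08), Ahr (0.08), the aryl hydrocarbon receptor, Itgae (0.08), the integrin CD103 of tissue T cells, and Mmp9 (0.09). Of 11 measured cycling cell markers, Mcm5 among them, 7 rose and all 11 had a higher mean in pancreas, by a median log2 fold change of 1.44. Their summed intensities were 9790 to 10400 in pancreas and 4110 to 5970 in spleen. The part of cycling cells in the difference of Elovl6 was not tested.

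The rest of fatty acid synthesis differed little. Elovl5, which elongates polyunsaturated fatty acids, was at 10.94, 10.39 and 10.10 in pancreas and 11.02, 10.56 and 10.74 in spleen, with a log2 fold change of -0.30. Fasn, fatty acid synthase, had a log2 fold change of 0.12, Acly, which supplies cytosolic acetyl-CoA, of 0.10, and Acaca, acetyl-CoA carboxylase, of -0.13. All 4 overlapped between tissues, and none passed the test. Elovl1 (-0.12) and the desaturase gene Fads1 (-0.01) overlapped too. Fads2 had a mean below background, with 2 of 3 pancreas arrays and 0 of 3 spleen arrays above it. Without Scd1, the 9 remaining members had a median log2 fold change of 0.04.

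Fabp5, which encodes a cytosolic fatty acid-binding protein, rose in pancreas. It was at 7.23, 7.17 and 7.42 in pancreas and 6.14, 6.23 and 6.54 in spleen. All 6 arrays were above background, the tissues were 0.64 apart at their nearest, and the arrays of a tissue lay close together, unlike those of Scd1. The means were 7.27 ± 0.13 and 6.30 ± 0.21 (SD, n = 3 each), a log2 fold change of 0.97 ± 0.17 SE, or 1.96-fold (95% interval 1.5 to 2.56, adjusted p = 0.0361, limma).

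A second probe set of Fabp5 differed by 0.88 in the same direction. The RefSeq table lists a near copy, Fabp5l2, which may share signal with these probe sets, so the source of the signal is uncertain. The call ended in 5 of the 6 fits that leave out an array, those without pancreas array 1 (adjusted p = 0.0667, limma), pancreas array 2 (adjusted p = 0.127), spleen array 1 (adjusted p = 0.131), spleen array 2 (adjusted p = 0.194) or spleen array 3 (adjusted p = 0.0529). The log2 fold change itself ran from 0.89 to 1.09 over the 6 fits.

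By the same measure the genes nearest to Fabp5 were Tigit, a co-inhibitory receptor gene of Treg cells (0.16), the sulfotransferase genes Chst11 (0.16) and Chst2 (0.16), the transcriptional regulator gene Id2 (0.16) and Odc1, of polyamine synthesis (0.17). The nearest 12 also held Tnip3 (0.18), Sema7a (0.20), S100a6 (0.20), the histone genes H4c4 (0.17) and H4c14 (0.20) and the cell cycle genes Cdc45 (0.20) and Cdca7 (0.20). Over the pancreas arrays Fabp5 (7.23, 7.17 and 7.42) was lowest on array 2 and highest on array 3. That is the order of the mean of the B cell list (7.20, 6.37 and 7.49). The second probe set of Fabp5, at 6.83, 6.76 and 6.80, was also lowest on array 2 but highest on array 1. The part of B cell RNA was not tested. The cycling cell markers were higher on all 3 pancreas arrays too, and their part in the difference of Fabp5 was not tested.

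Genes of storage gave no call. Dgat1, which makes triglyceride, was at 9.56, 8.98 and 8.23 in pancreas and 7.73, 8.51 and 8.48 in spleen. The log2 fold change was 0.68 ± 0.32 SE (adjusted p = 0.777, limma), and the overlap came from pancreas array 3, below 2 of the spleen arrays. Dgat2, its unrelated counterpart, was at 6.36, 6.29 and 6.44 in pancreas and 6.55, 6.40 and 6.26 in spleen, with a log2 fold change of -0.04. The uptake genes Cd36, a fatty acid translocase, and Lpl, lipoprotein lipase, were below background on all 6 arrays, so their differences are between values at background. Both are abundant in macrophages and adipocytes.

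Fatty acid oxidation did not differ past the test. Acadl, the long-chain acyl-CoA dehydrogenase, was at 7.35, 7.0 and 6.73 in pancreas and 6.57, 6.46 and 6.73 in spleen. The highest spleen array reached the lowest pancreas array, with a log2 fold change of 0.44 ± 0.19 SE (adjusted p = 0.704, limma). Cpt1a, which admits fatty acids to mitochondria, was at 9.79, 10.23 and 9.51 in pancreas and 9.31, 10.09 and 10.33 in spleen. Acadm, the medium-chain enzyme, was at 8.22, 8.11 and 7.38 in pancreas and 7.97, 7.94 and 8.44 in spleen. Both overlapped widely, with log2 fold changes of -0.07 and -0.21. Cpt1a was positive under scale normalization (0.10), and Acadm was at 0.05 without pancreas array 3.

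Sterol efflux genes, targets of the LXR receptors, overlapped between tissues. Abca1 was at 8.0, 7.39 and 7.07 in pancreas and 7.59, 7.70 and 7.83 in spleen, a log2 fold change of -0.22. Abcg1 was at 9.13, 9.06 and 8.19 in pancreas and 8.44, 8.96 and 9.21 in spleen, a log2 fold change of -0.08. Abcg1 was positive without pancreas array 3 (0.22), without spleen array 3 (0.09) and with array weights (0.04).

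**Figure D3:**
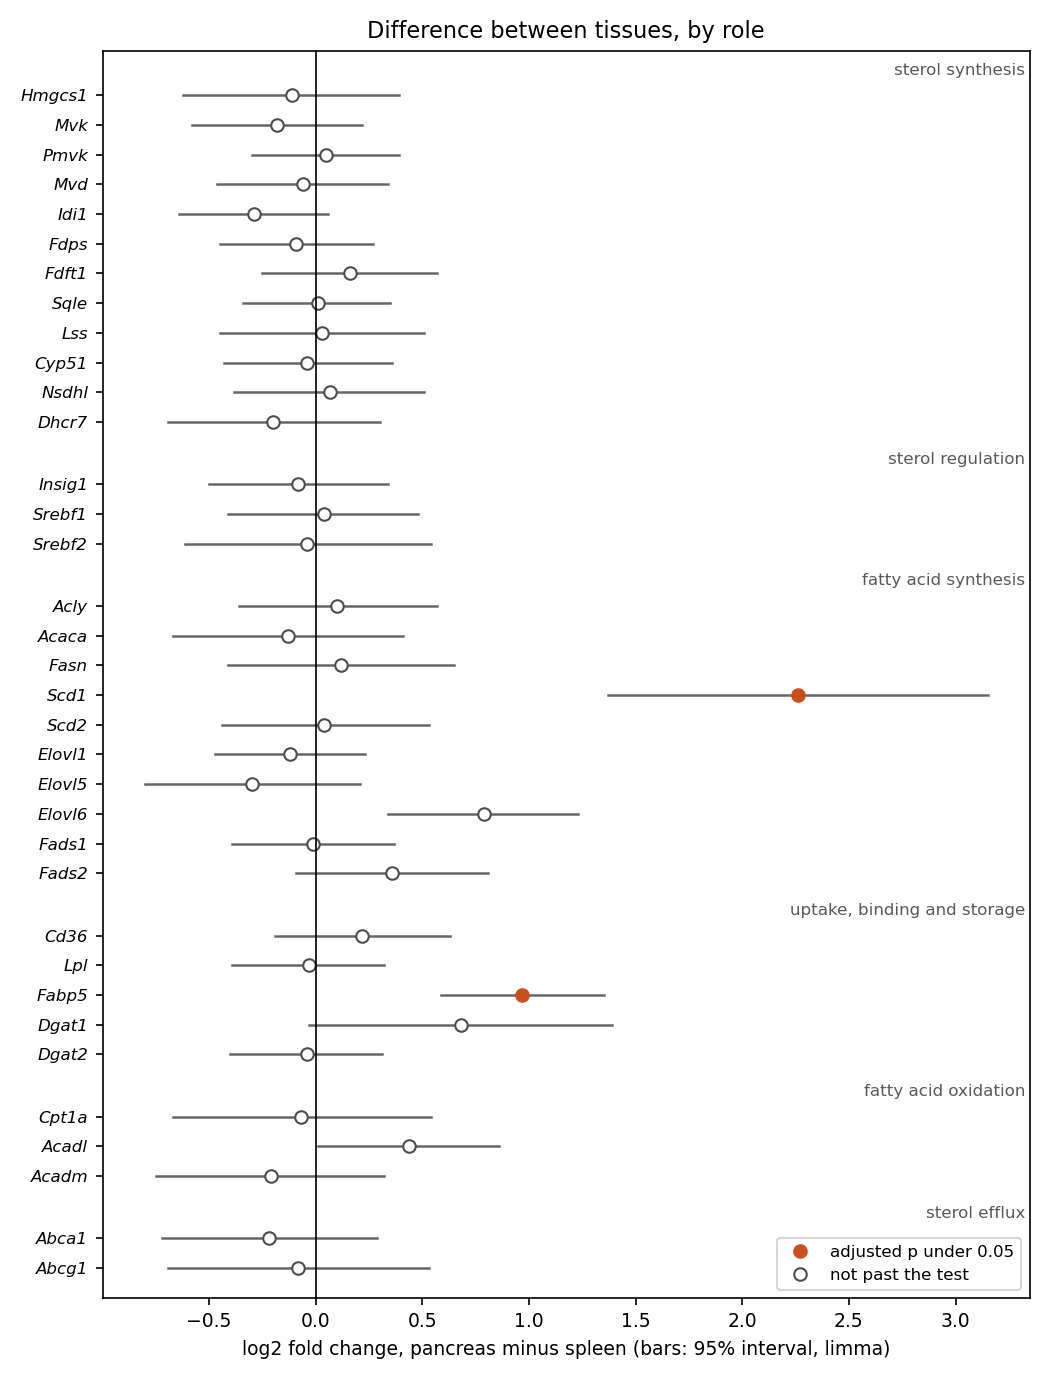
Log2 fold change, pancreas minus spleen (x axis), with its 95% interval from limma for the 35 members by role. Scd1 and Fabp5, filled, passed the test, the intervals of Elovl6 and Acadl also lie above 0, and those of all 15 sterol synthesis and regulation members include 0.

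The sterol and fatty acid synthesis sets were also set side by side by array. Deviations were taken from each gene's own mean over the 6 arrays and averaged over a set. The 12 sterol synthesis genes were at 0.08, 0.05 and -0.20 on pancreas arrays 1 to 3 and -0.09, 0.00 and 0.17 on spleen arrays 1 to 3. The 9 fatty acid synthesis genes other than Scd1 were at 0.33, 0.05 and -0.23 in pancreas and -0.12, -0.02 and -0.01 in spleen. Both sets overlapped between tissues and both were lowest on pancreas array 3, as was the mean over all genes above background (-0.16). Scd1 and Fabp5, averaged for scale, were at 1.06, 0.24 and 1.13 in pancreas and -0.87, -0.59 and -0.97 in spleen. They are the members past the test, so their separation follows from that choice and is no comparison with the sets.

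Scaled to a common width, the fatty acid synthesis genes other than Scd1 were at 0.10, 0.00 and 0.14 in pancreas and 0.04, -0.11 and -0.18 in spleen, and the sterol synthesis genes at 0.03, 0.02 and -0.09 against -0.03, -0.04 and 0.11. The tissues still overlapped for both sets. The median log2 fold change of the fatty acid synthesis members exceeded that of the sterol synthesis members by 0.125, a difference given without a test, since the members were chosen by name. It was 0.039 without spleen array 1, 0.052 without pancreas array 1, 0.23 without pancreas array 3 and 0.189 without spleen array 2, and 0.209 and 0.214 under quantile and scale normalization.

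**Figure D4:**
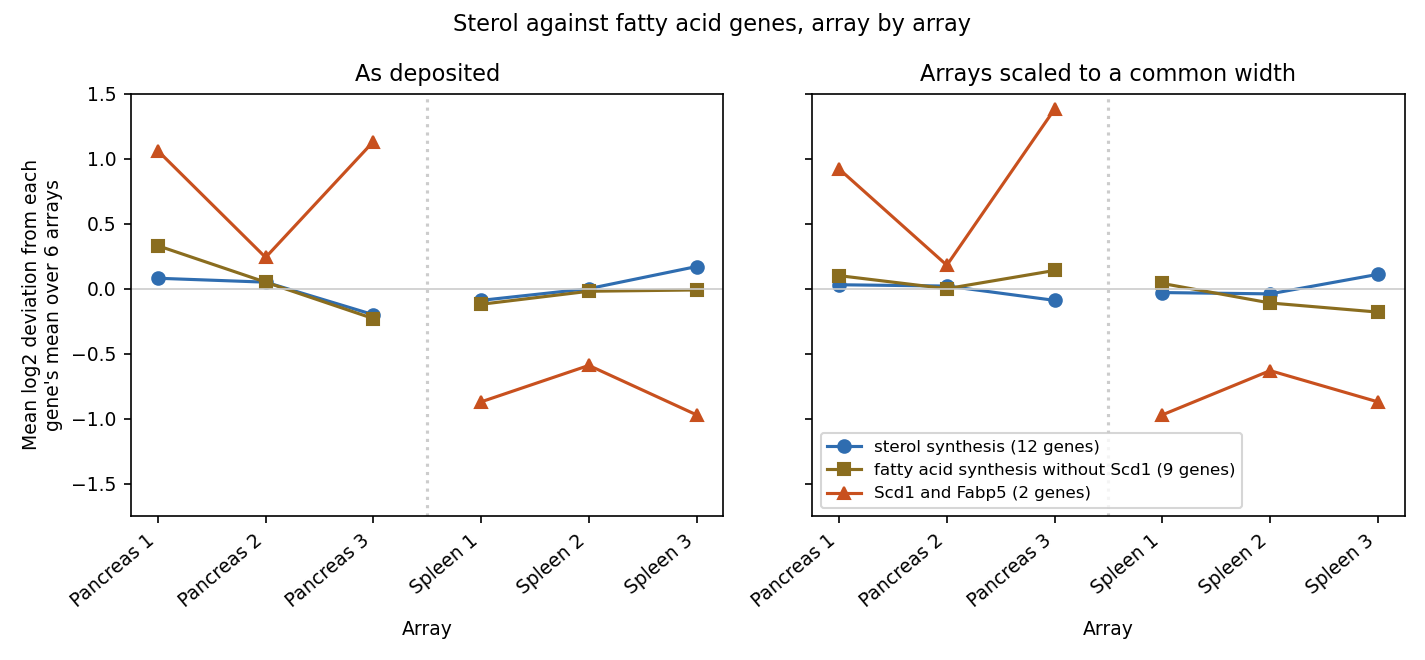
Mean log2 deviation from each gene's mean over the 6 arrays (y axis) by array (x axis) for 12 sterol synthesis genes, 9 fatty acid synthesis genes without Scd1, and Scd1 with Fabp5, on values as deposited (left) and after scaling the arrays to a common width (right). The sterol and fatty acid synthesis sets overlap between tissues in both panels, and Scd1 and Fabp5, at 0.24 to 1.13 in pancreas and -0.97 to -0.59 in spleen as deposited, are drawn for scale because they passed the test.

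Outside the members, 73 further genes of these pathways were measured, 53 of them above background. In limma 0 rose and 0 fell, and at an unadjusted p under 0.05 there were 0 higher and 3 lower in pancreas, where the shares over all genes were 3.20% and 3.64%. The 3 were Ggps1 (log2 fold change -0.58), which makes the prenyl donor of small GTPases, Msmo1 (-0.44), a sterol demethylating oxidase, and Lipa (-0.50), the lysosomal lipase that frees cholesterol from its esters. Their adjusted p was 0.595 to 0.667. Msmo1 was at 7.56, 7.52 and 7.27 in pancreas and 7.71, 7.78 and 8.18 in spleen, without overlap, the same direction as Idi1.

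By list, the other sterol synthesis genes had a median log2 fold change of 0.03 (7 genes) and those of sterol sensing, uptake and transport of -0.13 (12 genes). The latter included Npc1, of lysosomal cholesterol export (-0.40, adjusted p = 0.819). The other fatty acid synthesis genes had a median of -0.07 (18 genes), with Acss2, which makes acetyl-CoA from acetate, at -0.38 and the kinase gene Prkaa1 at -0.29. Further uptake and storage genes had a median of 0.00 (19 genes), with Pparg, the lipid-sensing nuclear receptor of tissue Treg cells, at 0.32 (adjusted p = 0.885) and Lpin1 at -0.27. Further oxidation genes had a median of 0.03 (17 genes), with Etfb at 0.42 and Decr1 at -0.28. None of these passed the test.

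**Figure D5:**
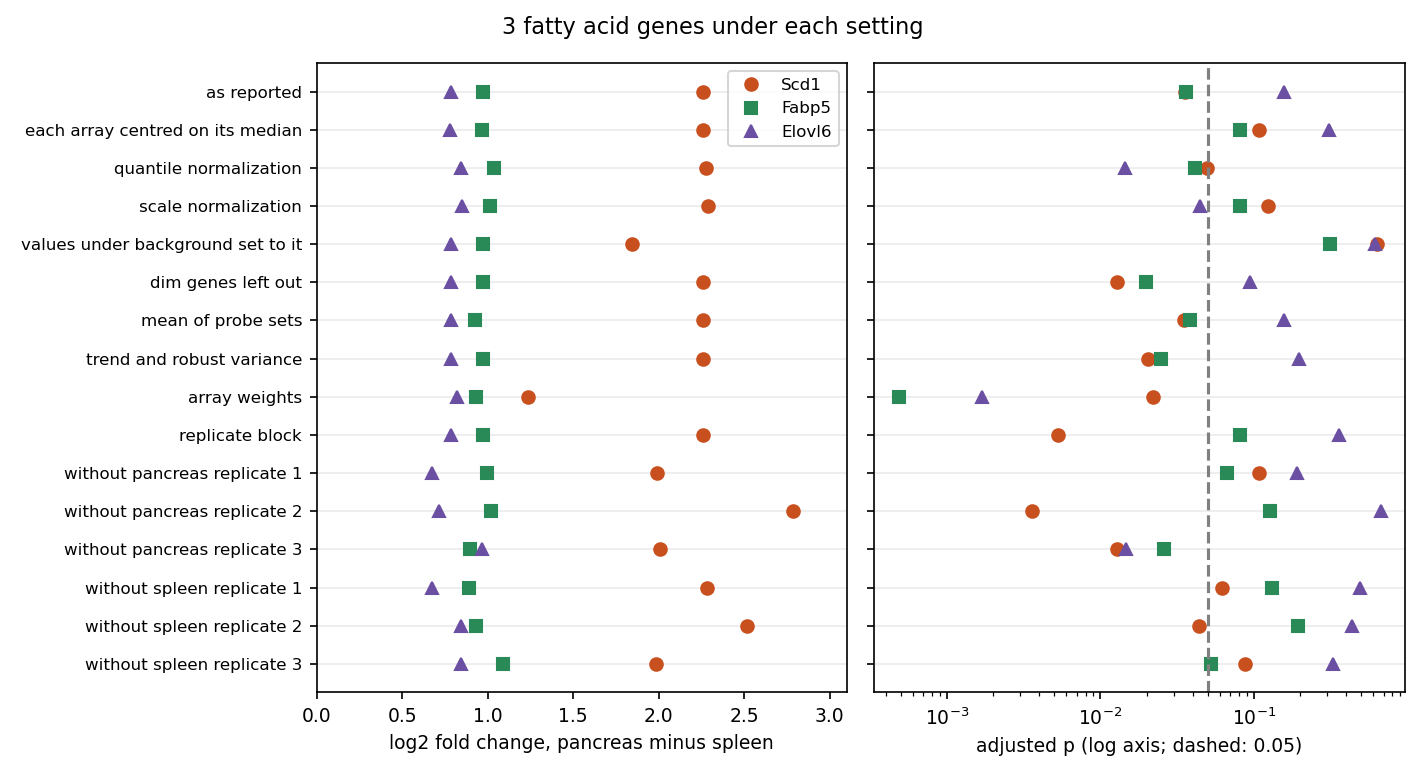
Log2 fold change (left) and adjusted p on a log axis (right) of Scd1, Fabp5 and Elovl6 as reported and under each of 15 alternatives (rows). The fold changes stay above 0 in each row, while Scd1 is past the test in 9 of the 15 alternatives, Fabp5 in 6 and Elovl6 in 4.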

How the data were processed

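Treg cells were profiled on 6 Affymetrix Mouse Gene 1.0 ST arrays, 3 per tissue, after a double sort, TRIzol and the Ambion WT Expression Kit, per the labels. The authors deposited a linear intensity for each probe set, made with Affymetrix Power Tools and RMA, per the submitters' processing notes, which state no versions. The medians differ between arrays, and how arrays were normalized together is not stated. Values were taken to log2 without a pseudocount. Of 24922 probe sets, 21425 name 1 gene in the platform annotation and were used, by gene the one with the highest mean, which left 19752 genes. Among the members 4 genes had more than 1 probe set. The background level was the 95th percentile of the mean log2 value over 1190 chemosensory receptor genes.

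Tissues were compared with limma 3.58.1 (R 4.3.3; lmFit, eBayes, no covariates, two-sided, Benjamini-Hochberg over all genes), tested on simulated data. The members and lists were chosen with earlier results of these data known. Lists are described by counts and medians only. Values on every array are given for members past the test, for Scd1 and Fabp5, and for up to 3 members per role with the smallest p above background. Up to 2 other genes per pathway list, with the smallest p above background, are given by log2 fold change, and Msmo1 also by array. Genes beyond that, and the 4 promoters printed, were chosen after the values were seen, whereas the rule had set promoters of members past the test or their closest family member. Alternatives changed normalization, background, dim genes, probe sets, variance model, array weights, a replicate block and each array. Listed genes that no single-gene probe set covers were not analysed here. Matplotlib 3.10.9 drew the figures.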

Additional observations from a re-analysis of the deposited data

How the results depend on the processing

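Each result was recomputed under 15 alternatives, 6 of which leave out 1 array. The count of members higher in pancreas, 2 as reported, was 0 with each array centred on its median, 1 under scale normalization (Elovl6), 0 with a floor at the background level, 4 with array weights (Scd1, Elovl6, Fabp5 and Acadl) and 0 to 3 with 1 array left out. The count of members lower in pancreas was 0 in all 15. Of the other pathway genes, 1 was lower with array weights (Hacd3), against 0 in the remaining 14. The log2 fold change of Scd1 was no longer past the test at 2.26 with arrays centred (adjusted p = 0.108, limma), 2.29 under scale normalization (adjusted p = 0.124) and 1.84 with the background floor (adjusted p = 0.634), and ran from 1.98 to 2.78 with 1 array left out. That of Fabp5 was not past the test at 0.96 (adjusted p = 0.0807), 1.01 (adjusted p = 0.0807) and 0.97 (adjusted p = 0.313) in the same order, and ran from 0.89 to 1.09. With the floor the prior degrees of freedom fell from 6.58 to 0.354 and 3 genes passed in all, and the values of Fabp5, all above the floor, were unchanged. The median log2 fold change of the 5 uptake, binding and storage members was 0.22 as reported. It is the value of Cd36, which was below background on every array. The median was 0.14 under quantile normalization, 0.085 under scale normalization, 0.00 with the floor, 0.68 without dim genes (3 genes) and 0.14 to 0.36 with 1 array left out. That of the fatty acid synthesis members ran from -0.047 to 0.275 with 1 array left out. The medians of the sterol synthesis and oxidation members moved by less than the spread between replicates in all 15. Both changed sign, at -0.107 to 0.044 for sterol synthesis and -0.287 to 0.145 for oxidation. The difference of fatty acid from sterol synthesis, 0.125 as reported, ran from 0.039 to 0.23. The cause of these changes was not tested.

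All genes past the test numbered 134 as reported, 64 with arrays centred, 212 under quantile normalization, 66 under scale normalization, 1684 with array weights and 64 to 262 with 1 array left out. Array weights used limma's gene-by-gene method, because the default estimate did not converge, and gave pancreas array 2 a weight of 3.15 and spleen array 2 of 4.01. Whether same-numbered arrays are paired is not shown by the numbers alone. Their deviations from the tissue means correlated at -0.46, 0.11 and -0.68. This cannot decide the question, since deviations also differ with array width. The highest correlation, 0.65, was between pancreas array 3 and spleen array 1, the narrowest of each tissue. With the replicate block 132 genes passed, Scd1 kept its call and that of Fabp5 ended (0.97, adjusted p = 0.0811), which left 1 member. Each pancreas array correlated best with a spleen array of another number, whereas spleen array 1 correlated best with pancreas array 1. For arrays, signal over background limits Fads2, Cd36 and Lpl and the spleen level of Scd1.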
